A study of Mus musculus with 3 samples.

Results

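Interferon-stimulated antiviral genes were followed across 3 arrays of mouse CD8 T cells. The genes were chosen by name: 38 gene names of the antiviral interferon response, each taken from every probe set whose platform annotation gives that symbol alone. This gave 36 genes with 56 probe sets, out of 18194 named genes and 45101 probe sets on the array. Isg15 and Ifi44 had no probe set under that rule, so their signals were not analysed here and they enter only the promoter counts. The rule used no measured value, but the names were listed with earlier results of these data known.

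Total RNA was labelled with biotin, 6 µg for each array, and each group holds 1 array. All 3 groups are CD8 T cells with the tissue label MLN, taken here as mesenteric lymph node, and all carry the CL4 T cell receptor transgene, which makes CD8 T cells specific for influenza hemagglutinin (HA). The CL4-TCR group carries that receptor alone. The labels of the other groups add HA driven by the villin promoter. That promoter is used in gut epithelium, so the antigen in this model is limited to cells that use it. These labels join the names differently, by a slash in VILLIN-HA/CL4-TCR but by a plus sign in Villin-HA + CL4-TCR. They do not say whether both groups have the same genotype or design. The series lists ordinary, in vivo activated and in vivo generated regulatory CD8 T cells, but no label ties an HA array to activated or to regulatory cells. Age, strain background, number of pooled animals and cell purification were not given in the sources used here.

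Type I interferons signal through a receptor to a transcription factor complex that includes STAT2 and IRF9 and binds the interferon-stimulated response element (ISRE) in front of target genes. Interferon gamma acts mainly through another DNA element, the gamma activated site (GAS). The induced proteins include sensors of viral RNA and DNA, effectors such as the IFIT, OAS and MX families that block viral RNA or replication, and immunity GTPases that act on membranes around intracellular pathogens. T cells also carry interferon receptors and switch on many of these genes when they meet interferon.

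Short stretches of the promoters show what many members share in sequence. Of 27 members with an entry in the RefSeq promoter table (GRCm38.p6, 250 bases before to 50 after the start), 16 (Isg15 among them) held the ISRE core, GAAA then any 2 bases then GAAA, on either strand. By promoters rather than genes, this was 53.1% of 32, against 3.44% of all 32851 promoters of the same length. The GAS core, TTC then any 3 bases then GAA, was in 21.9% of the member promoters and 8.30% of all, and it overlapped the ISRE core in none of the 9 stretches shown next. These stretches come from genes called higher on Villin-HA + CL4-TCR (the first 5) and from GTPase genes not called higher there (the last 4), picked after their values were seen. Capitals mark the core, which reads as TTTC, 2 bases and TTTC where it lies on the opposite strand, with 8 bases on each side. Where a promoter holds several cores, 1 is shown.
Ifit1: agtctcagTTTCAGTTTCtcactgct
Ifit3: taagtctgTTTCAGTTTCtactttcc
Oas1a: gggaaatgGAAACTGAAAatctactt
Ifih1: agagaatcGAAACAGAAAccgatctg
Rsad2: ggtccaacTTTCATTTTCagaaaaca
Gbp2: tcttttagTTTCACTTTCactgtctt
Gbp3: ggacacagTTTCAGTTTCtatttccc
Igtp: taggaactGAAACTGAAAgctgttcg
Irgm1: aagaaataGAAACCGAAActgattct

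The core was near the start of genes that were called higher and of genes that were not, and that of Ifih1 lies 32 bases after the start. It was found in 5 of 8 members that were called higher on Villin-HA + CL4-TCR and had a promoter entry, and in 10 of 17 that were not called higher. In the whole promoters of Ifit3 and Igtp, from the effector and the GTPase group, the cores stand at different distances from the start. They begin 156 and 122 bases before it in Ifit3 (chr19:34583279-34583578, plus strand) and 34 bases before it in Igtp (chr11:58199306-58199605, plus strand), both in GRCm38.p6, with the core in capitals.
Ifit3: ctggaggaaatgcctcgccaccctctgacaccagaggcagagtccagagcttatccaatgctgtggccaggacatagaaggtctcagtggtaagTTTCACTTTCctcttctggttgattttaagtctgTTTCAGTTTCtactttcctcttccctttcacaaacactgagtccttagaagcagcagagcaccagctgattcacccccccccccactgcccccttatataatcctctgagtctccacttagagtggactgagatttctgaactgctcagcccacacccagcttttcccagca
Igtp: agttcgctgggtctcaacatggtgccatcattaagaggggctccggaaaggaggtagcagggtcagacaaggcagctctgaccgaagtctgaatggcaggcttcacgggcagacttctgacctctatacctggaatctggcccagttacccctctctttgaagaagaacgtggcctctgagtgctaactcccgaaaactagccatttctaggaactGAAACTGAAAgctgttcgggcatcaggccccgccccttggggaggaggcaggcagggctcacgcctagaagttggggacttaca

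Values are MAS5 signals, a linear intensity in arbitrary units, scaled to a trimmed mean of 150 on each array. Lower values were raised to a floor of 31.7, the median of all values, before log2 differences were taken. A gene was measured where its higher signal lay above the floor, and was called higher or lower at a log2 difference of at least 1, a fold of 2. Each gene is given by its probe set with the highest mean signal, and signals follow the order CL4-TCR first, VILLIN-HA/CL4-TCR next, then Villin-HA + CL4-TCR. With 1 array a group there is no test and no replicate spread, and every difference is one between arrays. The only spread available is the disagreement of probe sets of 1 gene, taken where they lay above the floor on both arrays. It does not measure variation between arrays, animals or preparations. For the members its SD on the log2 scale was 0.40 for VILLIN-HA/CL4-TCR minus CL4-TCR (11 genes). It was 0.80 for Villin-HA + CL4-TCR minus CL4-TCR (12 genes) and 0.72 between the HA arrays (11 genes).

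The CD8 identity of the samples held on all arrays, with 5 of 5 CD8 T cell markers above the floor on each and Cd4 below it. The 3′ to 5′ signal ratio of the Gapdh control probe sets, a sign of RNA integrity, was 18.4, 46.2 and 3.35, while that of Actb was 1.98, 2.46 and 1.80, and their part in the differences below was not tested. Nor was that of sex: the female transcript Xist had signals of 5442.5, 2.5 and 1339, and the Y-linked gene Eif2s3y 13.4, 1496 and 747.

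The antiviral genes divided the 2 HA arrays. Against the CL4-TCR array, 16 of 36 measured members (44.4%) were higher on Villin-HA + CL4-TCR and 1 was lower, where 11.9% of all 12196 measured genes were called higher and 9.53% lower. The median log2 difference of the members was 0.84 and that of all genes 0.06. On VILLIN-HA/CL4-TCR, 1 of 34 measured members (2.94%) was higher and 2 (5.88%) were lower, where 7.43% of all 11260 genes were called higher and 6.63% lower. Here 27 of the 34 lay below their CL4-TCR signal by any amount, as did 5913 of all 11260 genes. The median was -0.49 against -0.04 for all genes.

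Set directly against each other, VILLIN-HA/CL4-TCR had 22 of 36 members (61.1%) lower than Villin-HA + CL4-TCR and none higher, with a median of -1.33. Over all genes in this comparison 8.95% were called lower and 6.13% higher, with a median of -0.06. Even without the 2-fold threshold, 33 of the 36 members had the lower signal on VILLIN-HA/CL4-TCR, as did 6476 of all 12081 measured genes. This comparison shares its arrays with the comparisons above, so it is not independent of them.

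**Figure D1:**
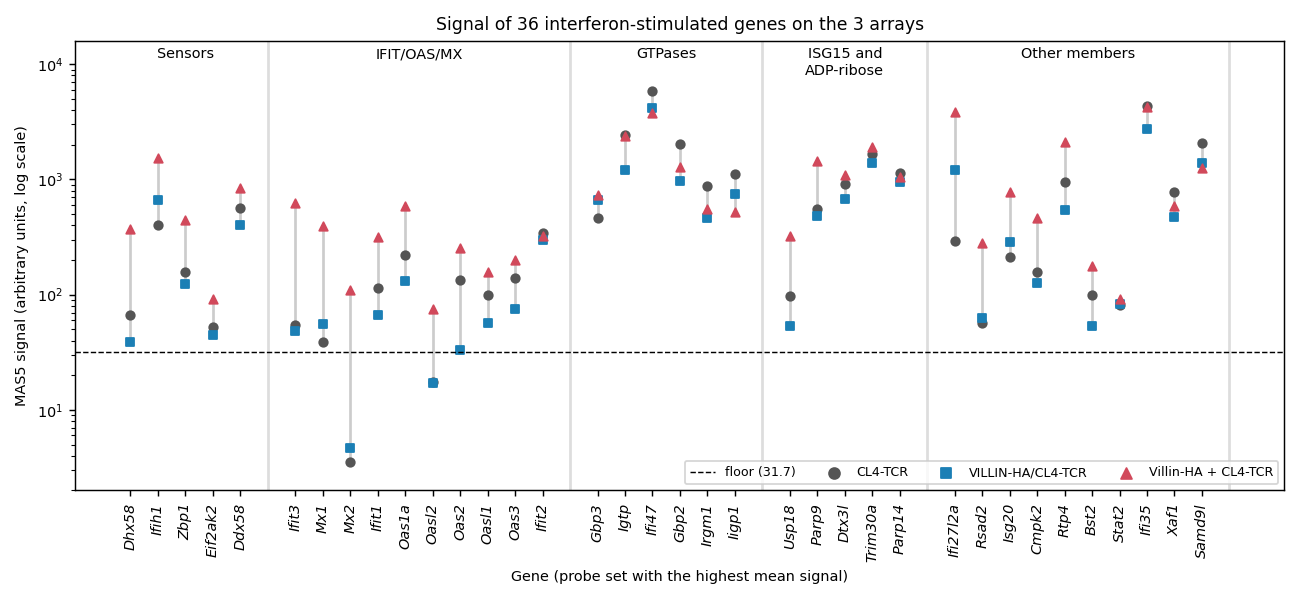
Signal of each of the 36 genes on the 3 arrays, on a log axis, by role group and ordered within each group by the difference of Villin-HA + CL4-TCR from CL4-TCR. Each point is 1 probe set on 1 array and the dashed line is the floor of 31.7. The Villin-HA + CL4-TCR triangles top every sensor and every IFIT/OAS/MX gene but Ifit2, while in the GTPases they lie among or below the other points except for Gbp3.

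Sensors of viral nucleic acid were higher on Villin-HA + CL4-TCR for 3 of 5 members, none was lower, and the median log2 difference was 1.48. Dhx58, which encodes the RIG-I-like helicase LGP2, had signals of 67.2, 38.9 and 371, a 5.51-fold difference between Villin-HA + CL4-TCR and CL4-TCR. Ifih1, which encodes the long double-stranded RNA sensor MDA5, had 406, 662 and 1549 and was 3.81-fold higher. It was the only sensor whose VILLIN-HA/CL4-TCR signal also lay above that of CL4-TCR, by a log2 difference of 0.70 that fell short of 2-fold. Zbp1, a sensor of Z-form nucleic acid that can trigger cell death, had 159, 124 and 442 and was 2.79-fold higher.

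The remaining sensors did not reach 2-fold against CL4-TCR. Eif2ak2, the kinase PKR that halts translation on double-stranded RNA, had 51.9, 45.0 and 92.4, a log2 difference of 0.83. Ddx58, which encodes RIG-I, had 566, 405 and 835, a log2 difference of 0.56, but its other 2 probe sets differed by -0.82 and -1.98, so its direction rests on the choice of probe set. The second measured probe set of Dhx58 had a log2 difference of 0.41 and that of Zbp1 0.70, the same direction with smaller size. Against Villin-HA + CL4-TCR, all 5 sensors were lower on VILLIN-HA/CL4-TCR by the probe set used, from a log2 difference of -1.04 (Eif2ak2) to -3.25 (Dhx58). Of these, Ddx58 and Eif2ak2 sat at the threshold, and both lost the call in at least 1 other processing. The other 2 probe sets of Ddx58 differed by -0.28 and 0.49, so its direction rests on the probe set here too. With the mean over probe sets, 3 of the 5 sensors were called lower.

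IFIT, OAS and MX effectors block viral RNA or replication. On Villin-HA + CL4-TCR 6 of 10 were higher than on CL4-TCR, none was lower, and the median log2 difference was 1.33. Ifit3, an adaptor of the IFIT complex that binds foreign RNA, had 54.1, 48.7 and 621, which is 11.5-fold. Mx1, a dynamin-like GTPase of the nucleus that blocks influenza virus, had 39.0, 55.4 and 395, which is 10.1-fold. Both were close to the floor on the first and second array and clear of it only on the third. Mx2, its cytoplasmic relative, had 3.5, 4.7 and 109, so it was at least 3.44-fold higher.

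Further effectors followed at smaller size. Ifit1, which binds RNA that lacks the host cap methylation, had 114, 66.5 and 317, 2.78-fold. Oas1a, a synthetase of the 2-5A messenger that activates RNase L, had 219.6, 132 and 588, 2.68-fold. Oasl2, an OAS-like protein, had 17.6, 17.1 and 75.0, at least 2.37-fold. The calls of Mx2 and Oasl2 were lost when the floor was raised to the 65th percentile of all values.

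Within these families members did not all differ alike. Oas2 had 135, 33.2 and 255, a log2 difference of 0.92 on Villin-HA + CL4-TCR, just under 2-fold, and -2.02 on VILLIN-HA/CL4-TCR, a 4.06-fold lower signal. It was 1 of the 2 members called lower on this array, and its signal there was barely above the floor. The call was lost with the floor at the 65th percentile, at a log2 difference of -0.97. Oas3 and Oasl1 had log2 differences of 0.54 and 0.65 on Villin-HA + CL4-TCR and of -0.88 and -0.81 on VILLIN-HA/CL4-TCR, none of them called. Ifit2, another RNA-binding IFIT protein, had 343, 298.5 and 325 and so hardly varied. Its neighbour in the RefSeq gene table, Ifit3, was the most different of the group. Each of these 10 genes had 1 probe set, so no second measurement within the array exists.

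Between the HA arrays, 9 of 10 effectors were lower on VILLIN-HA/CL4-TCR than on Villin-HA + CL4-TCR. The difference was 12.7-fold for Ifit3, 7.69-fold for Oas2, 7.12-fold for Mx1, 4.77-fold for Ifit1 and 4.45-fold for Oas1a. Ifit2 was the exception, with a log2 difference of -0.12.

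Immunity GTPases did not share the pattern of the effectors. None of 6 was higher on Villin-HA + CL4-TCR than on CL4-TCR, 1 was lower, and the median log2 difference was -0.64. The size of that median rests on the probe sets. It was -0.33 with the mean over probe sets and -0.32 without x_at and s_at probe sets. Iigp1, an immunity-related GTPase that loads onto parasite vacuoles, had 1118, 741 and 522 and was 2.14-fold lower, and its second probe set had a log2 difference of -1.38. Igtp, a regulator of that family also known as Irgm3, had 2409.8, 1216 and 2378, nearly the same signal on CL4-TCR and Villin-HA + CL4-TCR. The call of Iigp1 was lost when arrays were scaled to 1 median.

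On VILLIN-HA/CL4-TCR 1 of 6 GTPases was called lower and none higher, and the median log2 difference was -0.77, close to the -0.75 of the effectors. Gbp2, a guanylate-binding protein that coats bacteria and vacuoles, was the 1 called, with 2020.5, 966 and 1282 and a 2.09-fold lower signal. That call was lost with arrays scaled to 1 median, with the mean over probe sets and without x_at and s_at probe sets. Its second probe set gave 907, 555.5 and 1356, so both were lower on VILLIN-HA/CL4-TCR while they disagreed on Villin-HA + CL4-TCR, at log2 differences of -0.66 and 0.58. Igtp and Irgm1 came close, at -0.99 and -0.94. Irgm1, which regulates autophagy and the effector GTPases, had 884.5, 461 and 559. Ifi47, the GTPase Irgd, had 5880.5, 4158 and 3811. Gbp3 alone went the other way, with 459, 664 and 732 and log2 differences of 0.53 and 0.67, short of 2-fold.

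Between the HA arrays no GTPase reached 2-fold in either direction by its probe set with the highest mean signal. The second probe set of Gbp2 did, with a log2 difference of -1.29, lower on VILLIN-HA/CL4-TCR. By the probe sets used, the GTPases ran from -0.97 (Igtp) to 0.51 (Iigp1), VILLIN-HA/CL4-TCR less the other HA array. Their median was -0.21, where sensors had -1.23 and effectors -1.97.

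**Figure D2:**
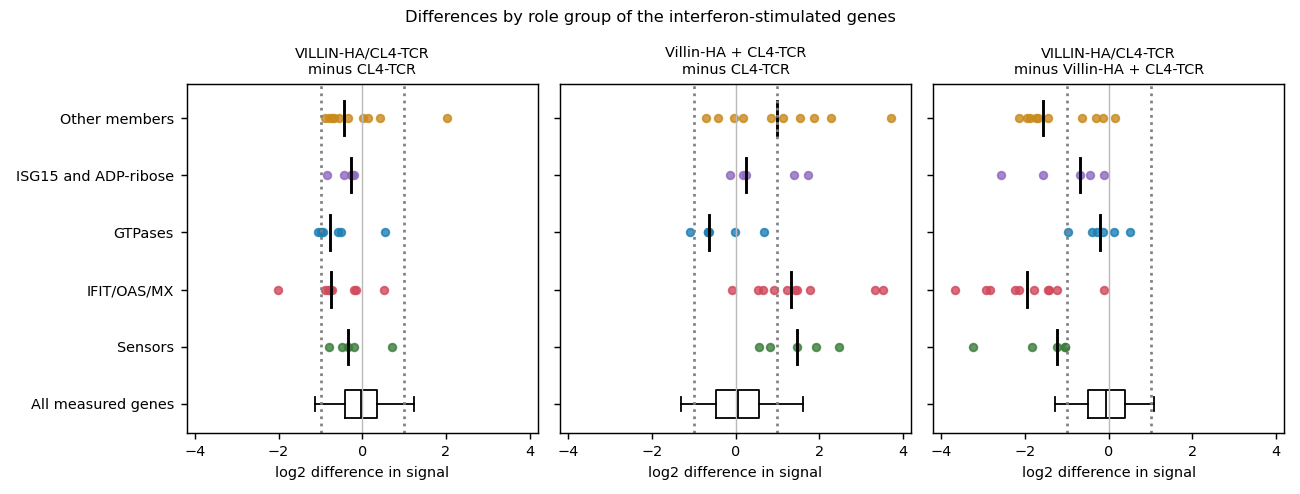
Log2 differences of the measured members by role group in the 3 comparisons, each point 1 gene, the short black bar the group's median and the dotted lines the 2-fold threshold. The box of all measured genes spans its quartiles and its whiskers the 5th to 95th percentile. Medians of sensors and effectors sit at 1.48 and 1.33 in the middle panel and that of the GTPases at -0.64.

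Genes around the ubiquitin-like modifier ISG15 and ADP-ribosylation split into 2 higher and 3 uncalled on Villin-HA + CL4-TCR (median log2 difference 0.25). Usp18, the protease that removes ISG15 and damps the type I interferon receptor, had 96.7, 53.8 and 322 and was 3.33-fold higher. Parp9, an ADP-ribosyltransferase that pairs with the ubiquitin ligase DTX3L, had 556, 485 and 1453 and was 2.61-fold higher. Its partner Dtx3l, the adjacent gene in the RefSeq table, had 915, 681 and 1091, a log2 difference of only 0.25. Parp14, next to Dtx3l, had 1139.9, 957 and 1040.0, a log2 difference of -0.13. The second probe sets of Dtx3l and Parp14 had log2 differences of -0.08 and -0.07, so of these 3 neighbours only Parp9 was called. Trim30a, a TRIM protein that restrains inflammatory signalling, had 1668, 1388.5 and 1897, a log2 difference of 0.19.

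On VILLIN-HA/CL4-TCR all 5 of these genes lay below CL4-TCR and none by 2-fold, with log2 differences from -0.20 (Parp9) to -0.85 (Usp18). Against Villin-HA + CL4-TCR, Usp18 was 5.98-fold and Parp9 3.00-fold lower there.

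Among the other interferon-stimulated members, 5 of 10 were higher on Villin-HA + CL4-TCR than on CL4-TCR and none lower (median log2 difference 1.00). Ifi27l2a, a small hydrophobic protein gene that responds strongly to interferon, had 295, 1198 and 3877, which is 4.06-fold on VILLIN-HA/CL4-TCR and 13.2-fold on Villin-HA + CL4-TCR. It was the only member called higher on VILLIN-HA/CL4-TCR. Both comparisons use the same CL4-TCR array, where its signal was the lowest of the 3.

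Rsad2, which encodes viperin, an enzyme that makes a chain-terminating nucleotide, had 57.0, 62.5 and 279 and was 4.89-fold higher on Villin-HA + CL4-TCR. Cmpk2, the adjacent gene in the RefSeq table and a kinase that supplies its nucleotide substrate, had 157, 125 and 458 and was 2.91-fold higher. These neighbours were called higher on the same array. Neither was called on VILLIN-HA/CL4-TCR, where they lay on opposite sides of CL4-TCR, with log2 differences of 0.13 and -0.33. Isg20, an exonuclease of RNA, had 211, 284 and 774 and was 3.68-fold higher. Rtp4, a chaperone of membrane receptors, had 955, 545.5 and 2112.5 and was 2.21-fold higher. The other measured probe sets of Rsad2 had log2 differences of 0.53 and 0.70, and that of Rtp4 0.63, all in the same direction.

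The remaining 5 were not called on Villin-HA + CL4-TCR. Bst2, the tetherin that holds budding virus on the cell, had 99.1, 53.6 and 178, a log2 difference of 0.85. Samd9l, a restriction factor of poxviruses, had 2056, 1397 and 1260.3, a log2 difference of -0.71. Stat2, which carries the type I interferon signal itself, had 81.3, 82.6 and 91.6, a log2 difference of 0.17, and 0.50 by its second probe set. Ifi35 and Xaf1, the latter a pro-apoptotic XIAP-binding protein, differed by -0.03 and -0.43, but other probe sets of each gene differed by 1.24 and 1.27, so their values depend on the probe set. Between the HA arrays, 6 of the 10 were lower on VILLIN-HA/CL4-TCR, among them Rsad2 (4.46-fold), Rtp4 (3.87-fold), Cmpk2 (3.66-fold) and Bst2 (3.32-fold).

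Probe sets of 1 gene allow a check within the arrays. Of the 16 members called higher on Villin-HA + CL4-TCR, 4 had several measured probe sets (Dhx58, Zbp1, Rsad2 and Rtp4), and in all 4 these had 1 direction. The other 12 had 1 measured probe set each. Among 19 uncalled members, 9 had several, and in 5 of these they went both ways: Ddx58, Ifi35, Gbp2, Xaf1 and Dtx3l. Of the 22 members called lower on VILLIN-HA/CL4-TCR than on Villin-HA + CL4-TCR, 6 had several. Those of 5 had 1 direction and those of Ddx58 went both ways.

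**Figure D3:**
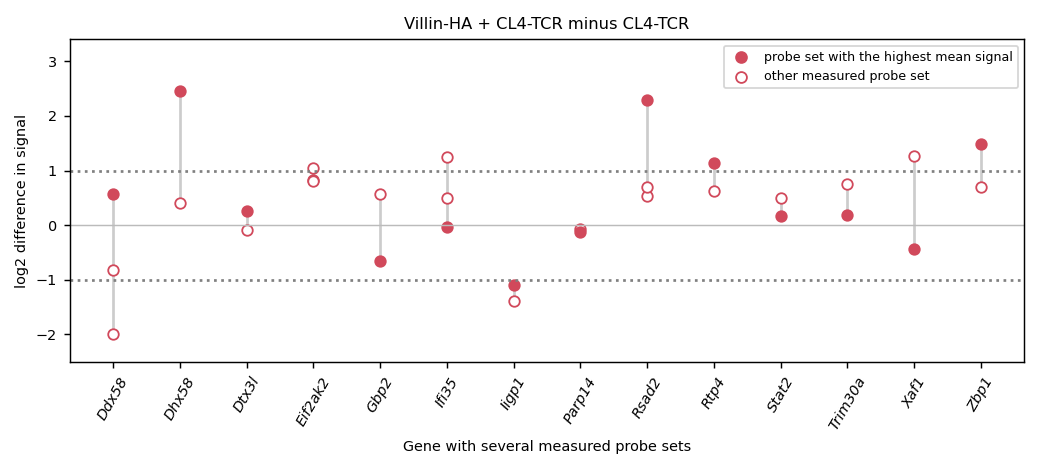
Log2 differences of Villin-HA + CL4-TCR minus CL4-TCR for the genes with several measured probe sets, 1 point a probe set. Filled points are the probe sets used for the gene and open points the others. Those of Dhx58, Rsad2, Rtp4 and Zbp1 lie above 0, while those of Ddx58 run from -1.98 to 0.56.

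Transcripts of cells other than CD8 T cells also differed between the arrays, and in bulk samples fewer cells of a type and less RNA per cell cannot be told apart. Macrophage and monocyte markers had 5, 9 and 7 of 9 above the floor and summed signals of 262, 1728 and 950.2. Their sum was highest on VILLIN-HA/CL4-TCR, mostly through Lyz2 (84.5, 817 and 312) and Csf1r (40.9, 384 and 125). Between the HA arrays, 5 of these markers were higher on VILLIN-HA/CL4-TCR by any amount and 4 on Villin-HA + CL4-TCR. Among the latter was Cd68, with 39.5, 49.1 and 106. Neutrophil markers had 0, 0 and 2 of 3 above the floor, with sums of 30.7, 47.4 and 1002, and S100a8 at 738.7 on Villin-HA + CL4-TCR. Stromal markers had 1, 0 and 4 of 5 above the floor and sums of 83.8, 71.9 and 696. Plasmacytoid dendritic cell markers, from the cells that make most type I interferon, had 3 of 5 above the floor on each array and sums of 676, 636 and 387, and the defining marker Siglech lay below the floor on all 3. Conventional dendritic cell markers had 2, 1 and 1 of 4 above the floor and sums of 114, 55.8 and 466, of which Itgax made 38.9, 43.5 and 431, while Flt3 and Xcr1 lay below the floor throughout. B cell markers had 3, 3 and 2 of 4 above the floor and sums of 232, 411 and 320.3. Neutrophil, stromal and conventional dendritic cell sums were highest on Villin-HA + CL4-TCR, the last through Itgax alone. So were the sums of NK cell markers (1899.7, 1975.5 and 3107.0) and epithelial markers (135.5, 87.6 and 158.9). The NK sum was almost all Nkg7 (1895.8, 1950.7 and 3079.0), while Ncr1 lay below the floor throughout. Of the epithelial markers, Krt8 and Krt18 were near the floor on Villin-HA + CL4-TCR, at 40.6 and 42.9. Epcam was highest on CL4-TCR (74.8, 48.9 and 70.9). The CD8 T cell markers themselves also summed highest on Villin-HA + CL4-TCR (9458.6, 9790.4 and 11933.9). The part of all these lists in the result was not tested.

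The interferon genes themselves could be read only in part. Of 5 ligand genes on the array, Ifng and Ifnb1 were called higher on Villin-HA + CL4-TCR, and Ifna1, Ifna2 and Ifna4 lay below the floor on every array. Ifng, which encodes interferon gamma, had 4.2, 58.7 and 631.5, at least 19.9-fold. Ifnb1, which encodes interferon beta, had 21.0, 15.0 and 71.7, at least 2.26-fold from a low signal, a call that was lost with the floor at the 65th percentile.

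Receptors and signalling genes had few calls against the CL4-TCR array. None of 10 was higher on Villin-HA + CL4-TCR and 1 was lower. Over all genes 11.9% were higher and 9.53% lower there, so the lower call is near the share of all genes. The gene called lower was Ifnar2, a chain of the type I receptor, with 319, 500.2 and 66.0. Its other probe sets ranged up to a log2 difference of 0.28, so the direction rests on the probe set. Jak2, a kinase of the interferon gamma receptor, was the 1 gene called higher on VILLIN-HA/CL4-TCR, with 990.4, 2096 and 1163. Over all genes 7.43% were higher on that array. Between the HA arrays, Ifngr1, a chain of the interferon gamma receptor, had 425, 222.5 and 647. It was 2.91-fold lower on VILLIN-HA/CL4-TCR, while Ifnar2 was called higher there.

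Genes that induce interferon had 1 of 7 measured members higher on Villin-HA + CL4-TCR and 1 lower on VILLIN-HA/CL4-TCR, and it was the same gene. Each count is 14.3% of the list. Over all genes 11.9% were higher on Villin-HA + CL4-TCR and 6.63% lower on VILLIN-HA/CL4-TCR. Irf7, the master factor of type I interferon and itself interferon-induced, had 371, 163 and 819, log2 differences of 1.14 and -1.19. It lay on opposite sides of the CL4-TCR array and has 1 measured probe set.

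Interferon-induced genes of antigen processing had none of 8 called on Villin-HA + CL4-TCR (median log2 difference 0.30). On VILLIN-HA/CL4-TCR the list had a median of -0.63, and 3 (37.5%) were lower, where 6.63% of all genes were. These were the immunoproteasome subunits Psmb10, with 1433, 452 and 1359.8, and Psmb8, with 1470.0, 619.9 and 2693, and the peptide transporter Tap2, with 725.5, 354 and 563. Psmb8 had a second probe set with a log2 difference of -0.40 on VILLIN-HA/CL4-TCR, the same direction with smaller size. On Villin-HA + CL4-TCR the 2 probe sets disagreed, at 0.87 for the one used and -0.22 for the second.

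Among 22 further interferon-induced genes, 3 (13.6%) were higher and 3 (13.6%) lower on Villin-HA + CL4-TCR, with a median of -0.05. Over all genes 11.9% were higher and 9.53% lower there, near these shares. On VILLIN-HA/CL4-TCR none of the 22 was higher and 5 (22.7%) were lower, with a median of -0.50. Over all genes 7.43% were higher and 6.63% lower on that array. Lgals9, the lectin galectin-9, had 186, 165 and 803 and was 4.31-fold higher on Villin-HA + CL4-TCR. Of 4 further GTPases in this list, Irgm2 had 934, 396 and 273 and Gbp8 had 1829.9, 636 and 834, both called lower on each HA array. The other two, Gbp6 and Gbp7, named after their values were seen, had log2 differences of 0.30 and -0.15 on Villin-HA + CL4-TCR, not called. Lgals3bp, a secreted galectin-binding glycoprotein, had 477, 193 and 624 and was 2.47-fold lower on VILLIN-HA/CL4-TCR than on CL4-TCR.

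**Figure D4:**
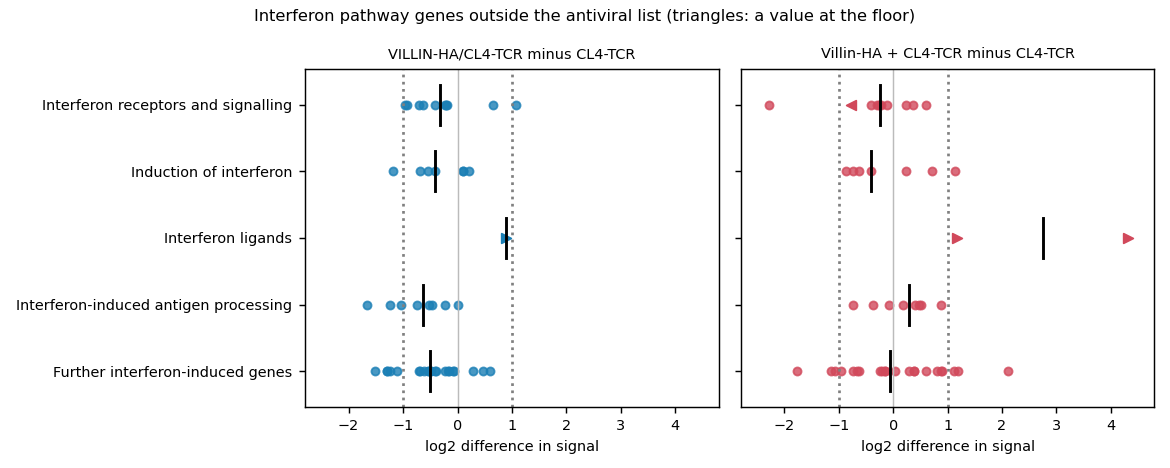
Log2 differences of the VILLIN-HA/CL4-TCR array (left) and the Villin-HA + CL4-TCR array (right) from CL4-TCR for interferon pathway genes outside the antiviral list, 1 point a gene, with the list's median as a black bar and the 2-fold threshold dotted. Triangles mark differences in which 1 value lay at the floor. The ligands Ifng and Ifnb1 are at least 4.32 and 1.18 on the right, while the medians of the other lists lie between -0.42 and 0.30.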

How the data were processed

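The deposited values are MAS5 intensities, 1 for each probe set and array, per the submitters' processing notes, which name no version. The 2% trimmed mean over the 45101 probe sets was 150.0 on each array, so a shift common to most transcripts would not be seen. Of the probe sets, 34958 had 1 gene symbol, 932 several and 9211 none in the platform annotation, and 34754 were matched by Entrez identifier to the RefSeq gene table (GRCm38.p6). Genes were called at 2-fold after flooring at 31.7. No test was possible with 1 array a group, and the number of arrays limits the precision.

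Every member was accounted for. Of the pathway genes, those called with the largest differences were named, at most 4 a list, and of the cell type markers at most 3 a list. Members and lists were chosen with earlier results of these data known. The calling code was checked on noise-free copies of the CL4-TCR array with set changes in genes of high signal. That check cannot show how many calls between single arrays, or near the floor, are false. Alternatives were other floors, a pseudocount, scalings, probe set choices and thresholds (Python 3.11.15, pandas 2.3.3).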

Additional observations from a re-analysis of the deposited data

Results flagged for a closer look

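Irf7 was set apart because its signal moved by at least 2-fold in opposite directions from the CL4-TCR array: the log2 difference was -1.19 for VILLIN-HA/CL4-TCR but 1.14 for Villin-HA + CL4-TCR. With 1 array a group the difference between them was not tested, and the gene has 1 probe set here. None of the 36 antiviral members met this condition, since Oas2, at -2.02, reached only 0.92 on Villin-HA + CL4-TCR.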

How the results depend on the processing

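Each count and median of the members was recomputed under 9 alternatives. The medians kept their sign in all 7 alternatives at 2-fold. Of the 16 genes higher on Villin-HA + CL4-TCR than on CL4-TCR, 13 kept the call in all 7, and Mx2, Oasl2 and Rtp4 did not. Of the 22 lower on VILLIN-HA/CL4-TCR than on Villin-HA + CL4-TCR, 18 kept it. Of the 2 lower on VILLIN-HA/CL4-TCR than on CL4-TCR (Oas2 and Gbp2) and the 1 lower on Villin-HA + CL4-TCR (Iigp1), 0 kept the call in all 7. The small counts moved: the 2 members lower on VILLIN-HA/CL4-TCR than on CL4-TCR were 1 after raising the floor to the 65th percentile, with arrays scaled to 1 median, without x_at and s_at probe sets and at 3-fold, and 15 at 1.5-fold, where 2 were higher instead of 1. The 1 member lower on Villin-HA + CL4-TCR than on CL4-TCR became 0 with arrays scaled to 1 median and at 3-fold, and 5 at 1.5-fold. At 3-fold, 9 members were higher on Villin-HA + CL4-TCR and 14 lower on VILLIN-HA/CL4-TCR than on Villin-HA + CL4-TCR. Scaling the arrays to 1 median moved the median log2 difference of all genes on VILLIN-HA/CL4-TCR from -0.04 to 0.08 and the share of higher among its calls from 52.87% to 64.98%.

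Of the genes called at 2-fold outside the members, 3 changed sign with the probe sets used: Ly6e on Villin-HA + CL4-TCR against CL4-TCR (-0.25 as the mean of its probe sets, -1.61 without x_at and s_at probe sets), Ifnar2 in the same comparison (0.28 without these probe sets) and Tor3a between the HA arrays (0.0063 without them). Uncalled values changed sign too, among them Gbp2 (0.58) and Ifi35 (1.24) on Villin-HA + CL4-TCR without these probe sets. Signals near the floor, such as those of Mx2, Oasl2, Mx1 and Ifit3 on the CL4-TCR array, limit the folds. No paired analysis was possible because each group has 1 array.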
